A study of Homo sapiens with 8 samples.

Results

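The genes described here are 35 listed p53 targets and apoptosis genes, of which 33 were measured among 15971 named genes on the arrays. They fall into 5 groups by role: 13 p53 targets of arrest, damage response and feedback, 4 survival members of the BCL2 family, 7 effectors and BH3 members of that family, 5 death receptor genes and 6 genes of caspases, the apoptosome and their inhibitors. Probes were assigned to genes by the platform annotation, and each gene was read at its probe with the highest mean over the 8 arrays. BTG2 and FDXR, both of the p53 target group, were not analysed here, and neither was the p53 gene itself. All 33 measured members had a value on every array, so no member was lost to an empty cell or to a filter on low values.

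The arrays measured total RNA of the line MDA-MB-231, which derives from a human breast cancer and is known to carry mutant p53. The cells had been transfected 48 h earlier with a miR-148b precursor at 75 nM (4 arrays) or with a negative control whose dose the labels do not give (4 arrays), which the series set against each other to find genes that the microRNA changes. Each title gives its array 1 of 3 codes, and 3 of the titles add a plus mark. The labels do not say what either means. Code 1 stands on miR-148b replicates 1 and 2 and control replicate 1. Code 2 stands on miR-148b replicate 3 and control replicates 2 and 3, and code 3 on the fourth replicates. Marked with a plus are miR-148b replicates 2 and 3 and control replicate 3. The miR-148b and control arrays of replicates 1, 3 and 4 therefore share both code and mark, and those of replicate 2 do not. All 8 arrays share the line, the dye and the 48 h time point, and the labels call the arrays of a group biological replicates. The spread given here is therefore between replicates of 1 cell line.

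Apoptosis runs along an intrinsic route, through mitochondria, and an extrinsic route, through receptors at the cell surface. In the intrinsic route BH3 proteins relieve the hold of survival members such as BCL2 and MCL1 on the effectors BAX and BAK, which open the outer mitochondrial membrane and let cytochrome c assemble the APAF1 apoptosome around caspase 9. In the extrinsic route TRAIL or FAS ligand engages a death receptor that recruits caspase 8, a step that cFLIP restrains. The transcription factor p53 switches on genes of both routes along with genes of cell cycle arrest, and a mutant p53 is known to lose much of this activity.

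The agent of the treatment is shown first, by the sequences of its mature arms, because a microRNA finds its messages by its seed. The sequences are RefSeq's on GRCh38.p14, with bases 2 to 8, the seed, in capitals. The 3p arm lies at chr12:54337278-54337299 and the 5p arm at chr12:54337240-54337261, both on the plus strand.
hsa-miR-148b-3p: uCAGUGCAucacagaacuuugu
hsa-miR-148b-5p: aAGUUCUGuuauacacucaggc
The labels name a precursor and do not say which arm was enriched. The arms have different seeds.

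The values are the normalized intensities that the authors deposited, in arbitrary units, and log2 differences come from a limma model with terms for treatment, code 1 and plus mark on all 8 arrays. A gene is called here at a Benjamini-Hochberg adjusted p of 0.05 over the 15866 genes tested. Array medians lay between 370.2 and 403.6. With 8 arrays in all, their number sets how precise the values are. The line's marker VIM, a mesenchymal filament gene, read 111883 to 185689, and CAV1, the caveolin 1 gene, 33767 to 42218. The luminal markers ESR1, the estrogen receptor gene, and CDH1, the E-cadherin gene, read 54.7 to 92.5 and 17.9 to 115. The mesenchymal marker SPARC read 43.6 to 368, and the epithelial keratin gene KRT18 read 68702 to 94840. Of the other luminal markers measured, KRT19 read 61222 to 93298, KRT8 16807 to 21379, EPCAM 2234 to 3684 and GATA3 105 to 330. PTPRC, the defining leukocyte marker, read 7.85 to 17.4. Of the other leukocyte markers measured, CD68 read 510 to 1008, CD14 120 to 370, CD3E 122 to 170 and LYZ at most 41.5.

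**Figure D1:**
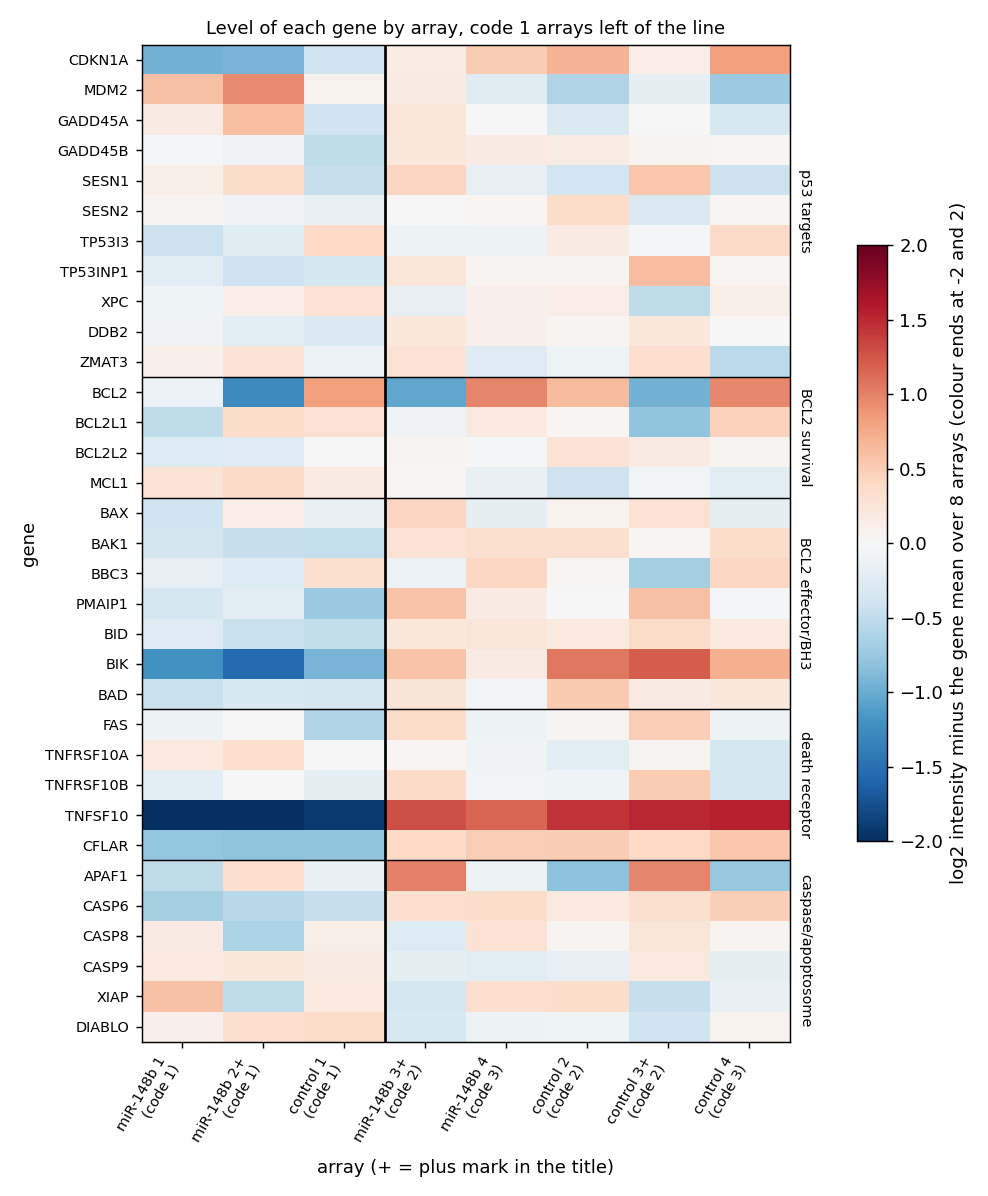
Heat map of the 33 members (rows, by role) over the 8 arrays (columns), where colour is the log2 intensity minus the gene's mean over the arrays and ends at -2 and 2, which TNFSF10 passes on the code 1 miR-148b arrays. The code 1 arrays stand apart from the others for TNFSF10, BIK, CFLAR, CDKN1A and CASP6, and the plus arrays for BCL2 and APAF1.

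On the code 1 arrays the message of TRAIL and most messages of the BH3 and effector group were lower than on the other arrays, in both treatment groups. Of 33 members 16 were called (48.5%), against 36.3% of all 15866 genes tested. Higher were 4 members (17.4% of all genes were), and lower were 12 (18.9% of all genes were). The median log2 difference was -0.18 over the members and -0.04 over all genes. The 3 code 1 arrays lay wholly below the 5 others in 12 members and wholly above in 2, MCL1 and DIABLO. Among all genes with a value on every array, the groups of arrays stood apart in 33.2%.

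The largest difference among the members was that of TNFSF10, the gene of the death ligand TRAIL. TNFSF10 read 146.9 and 196.4 on the code 1 miR-148b arrays and 256.5 on the code 1 control array, against 2383 and 2183 on the other miR-148b arrays and 2672, 2789 and 2883 on the other control arrays. Every code 1 array lay below every other array, with a gap wider than the spread on either side. Its mean was 199.9 ± 54.9 on the code 1 arrays (SD, n = 3) and 2582 ± 291 on the others (SD, n = 5). The log2 difference was -3.60 (SE 0.13), or 12.1-fold lower, with a limma adjusted p of 1.66e-05.

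CFLAR encodes cFLIP, the inhibitor of caspase 8 at death receptors. In the array order used for TNFSF10, which the code 1 values below keep, it read 1128, 1104 and 1115 on the code 1 arrays, against 2534, 2705, 2731, 2528 and 2800 on the others. The groups did not overlap, and the spread inside each was small beside the gap. The log2 difference was -1.26 (SE 0.08; limma adjusted p = 1.35e-04). Its other probes differed from each other, at -1.47 and -0.06, so the change was not seen at every probe of the gene.

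None of the 3 death receptor genes was called at its brightest probe. TNFRSF10A and TNFRSF10B, the death receptors for TRAIL, were at 0.27 and -0.18 on the log2 scale, and FAS, the receptor of FAS ligand, was at -0.36. The second probe of TNFRSF10B was at -0.41, with a limma adjusted p of 0.0210 over all probes. FAS read 106.9 to 227.6 over the 8 arrays.

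In the effector and BH3 group all 7 members had fitted differences below 0, as did 8487 of the 15866 genes tested. Called lower were 5 of the 7 (71.4%), against 18.9% of all genes. The group's median log2 difference was -0.65. BIK, a BH3 gene of the endoplasmic reticulum, read 90.2, 71.5 and 109.3 on the code 1 arrays, against 311.3, 233.9, 433.5, 484.0 and 341.7 on the others. It was 3.48-fold lower without overlap (log2 difference -1.80, SE 0.17; limma adjusted p = 4.96e-04). BAK1, one of the effectors that form the mitochondrial pore, read 2320.0, 2167 and 2138 on the code 1 arrays, against 3671, 3717, 3718, 3076 and 3809.9 on the others. The groups did not overlap, and its log2 difference was -0.74 (SE 0.09; limma adjusted p = 0.00164).

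PMAIP1 encodes NOXA, a p53-induced BH3 protein that binds MCL1. It read 3732, 4063 and 2823 on the code 1 arrays, against 7042, 5324, 4727, 7068 and 4660.1 on the others, a log2 difference of -0.71 (SE 0.11). BID links the death receptors to mitochondria once caspase 8 cuts it. Its readings were 7431, 6505 and 6298 on the code 1 arrays, against 10298, 10475, 10188, 11436 and 10205 on the others (-0.65, SE 0.11). BAD, a BH3 gene controlled by survival kinases, read 8416, 9133 and 9029 on the code 1 arrays, against 13593, 10969, 16474, 12796 and 13140.3 on the others (-0.54, SE 0.14). The code 1 arrays lay below all others for these 3 genes. The limma adjusted p was 0.00413 for PMAIP1, 0.00427 for BID and 0.0251 for BAD. BAX and BBC3, the PUMA gene, were at -0.17 and -0.13 and were not called. The dimmer probes of BID were at -0.47 and -0.05.

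Among the survival members only MCL1 was called at its brightest probe, at a log2 difference of 0.42 (SE 0.10; limma adjusted p = 0.0147). MCL1, which holds BAK and NOXA, read 41597 to 47922 on the code 1 arrays and 27743 to 37491 on the others, without overlap. BCL2, BCL2L1 (the BCL-XL gene) and BCL2L2 (the BCL-W gene) were at -0.36, 0.06 and -0.23 and were not called. The second probe of BCL2 was at 0.32, opposite in sign, with a limma adjusted p of 0.0408 over all probes.

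The p53 targets of arrest, damage response and feedback went both ways, with a median of -0.05. Of 11 measured members 1 was called higher (17.4% of all genes were) and 4 lower (18.9% of all genes were). Genes that p53 induces but that stand in another role group, such as PMAIP1, are not in this count. CDKN1A encodes p21, the inhibitor of cyclin-dependent kinases through which p53 arrests the cell cycle. It read 1019, 1029 and 1488 on the code 1 arrays, against 2179, 2789, 3136, 2163 and 3451 on the others. The code 1 arrays were all lower, 2.27-fold by the fit (log2 difference -1.18, SE 0.14; limma adjusted p = 0.00120). Its second probe was at -1.05. MDM2, the ubiquitin ligase that p53 induces and that degrades p53, ran the other way. It read 712.8, 920.9 and 500.3 on the code 1 arrays, against 535.9, 401.9, 312.8, 422.8 and 286.9 on the others. These readings overlap, since control replicate 1 was below miR-148b replicate 3. The fitted difference was 0.77 (SE 0.09; limma adjusted p = 0.00117), and the other 3 probes of MDM2 were at -0.04, 0.32 and 0.14.

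TP53INP1, a stress protein gene that p53 induces, read 545.8, 478.1 and 497.9 on the code 1 arrays, against 752.1, 663.0, 665.5, 974.4 and 658.4 on the others. It was lower without overlap (log2 difference -0.49, SE 0.15; limma adjusted p = 0.0410). GADD45B, a stress sensor gene, and DDB2, a damage recognition gene of nucleotide excision repair, were called lower at -0.39 (limma adjusted p = 0.0359) and -0.32 (0.0454). GADD45A, SESN1, SESN2, TP53I3, XPC and ZMAT3 lay between -0.13 and 0.15 and were not called.

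In the caspase group CASP6, an executioner caspase gene, was lower. Its readings were 2135, 2309 and 2450.0 on the code 1 arrays, against 4252, 4290.3, 3887, 4225 and 4691 on the others. The groups did not overlap, and the log2 difference was -0.88 (SE 0.11; limma adjusted p = 0.00138). CASP9, the apoptosome caspase gene, and DIABLO, which encodes the SMAC protein that blocks XIAP, were called higher at 0.36 (limma adjusted p = 0.0417) and 0.44 (0.0430). APAF1, CASP8 and XIAP were at -0.12, -0.19 and 0.04 and were not called.

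**Figure D2:**
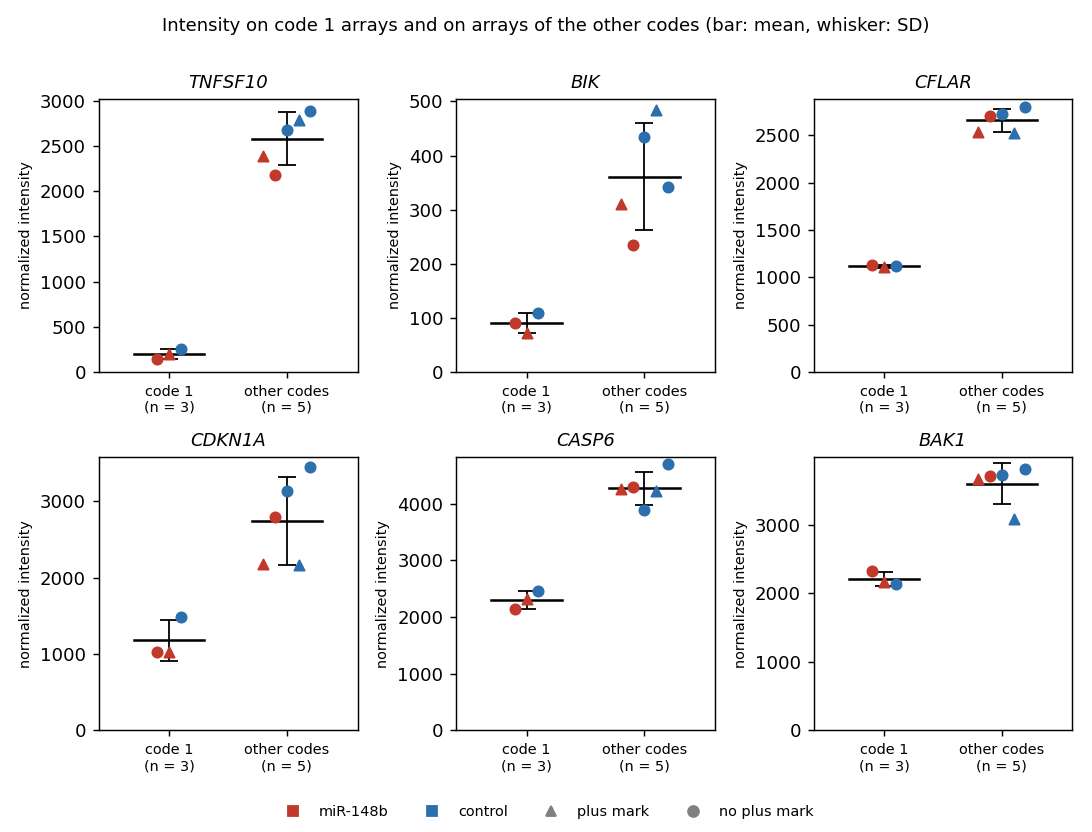
Normalized intensity (y axis, from 0) of 6 members on the 3 code 1 arrays and the 5 arrays of the other codes, with points for arrays, bars for means and whiskers for SD. In all 6 panels every code 1 point lies below every other point, with miR-148b and control arrays on both sides.

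Promoters are shown for TNFSF10, CFLAR, CDKN1A and CASP6, the 4 members that fell furthest on the code 1 arrays among those with a window in the RefSeq promoter table, so that the letters ahead of these starts can be compared. The table matched 26 of the 33 members, and gives 250 bases before to 50 after the start on GRCh38.p14, printed on the gene's strand. Capitals mark GGGCGG (the GC box), TATAAA (the TATA box) and the interferon response element core (GAAA, any 2 bases, GAAA), each searched on both strands.
TNFSF10, chr3:172523381-172523680, minus strand: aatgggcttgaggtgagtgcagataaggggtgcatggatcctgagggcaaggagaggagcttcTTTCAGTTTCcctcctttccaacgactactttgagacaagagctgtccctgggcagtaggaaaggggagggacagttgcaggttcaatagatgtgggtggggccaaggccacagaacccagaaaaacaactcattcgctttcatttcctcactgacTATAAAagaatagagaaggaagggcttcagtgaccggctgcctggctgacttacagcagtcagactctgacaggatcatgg
CFLAR, chr2:201118466-201118765, plus strand: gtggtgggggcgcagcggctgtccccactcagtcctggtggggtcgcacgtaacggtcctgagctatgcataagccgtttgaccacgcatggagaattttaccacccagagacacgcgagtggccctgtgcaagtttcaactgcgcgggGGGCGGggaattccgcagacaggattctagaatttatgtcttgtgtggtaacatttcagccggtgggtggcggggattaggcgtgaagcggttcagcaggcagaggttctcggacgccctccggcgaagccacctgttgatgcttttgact
CDKN1A, chr6:36678464-36678763, plus strand: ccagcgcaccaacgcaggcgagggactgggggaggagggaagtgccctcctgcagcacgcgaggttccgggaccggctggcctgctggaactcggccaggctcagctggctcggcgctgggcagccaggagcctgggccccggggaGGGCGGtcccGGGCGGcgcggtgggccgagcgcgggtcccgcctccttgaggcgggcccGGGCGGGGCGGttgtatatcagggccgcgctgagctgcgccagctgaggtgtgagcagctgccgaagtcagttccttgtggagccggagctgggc
CASP6, chr4:109703396-109703695, minus strand: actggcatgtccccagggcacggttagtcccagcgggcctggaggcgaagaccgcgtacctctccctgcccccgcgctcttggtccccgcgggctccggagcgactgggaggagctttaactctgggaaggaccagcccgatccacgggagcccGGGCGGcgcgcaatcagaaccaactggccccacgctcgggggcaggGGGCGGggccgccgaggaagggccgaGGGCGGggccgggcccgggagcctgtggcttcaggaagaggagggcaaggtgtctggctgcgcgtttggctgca

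The TNFSF10 window held 1 TATA box and 1 interferon response element core, the core read on the opposite strand, and no GC box. CFLAR (the first of its 4 windows in the table) held 1 GC box, CDKN1A 4, of which the last 2 share a base, and CASP6 3. No 2 different motifs overlapped in these windows. Over the 35116 windows of the table, the GC box was in 45%, the TATA box in 11.5% and the interferon core in 3.57%. Per gene these shares were 48.3%, 14% and 4.38%, and among the 26 matched members 21, 4 and 3 held the motif. The p53 decamer was searched as well and was in 8.06% of genes and in 6 of the 26 members, none of them one of the 4 shown. A match describes letters in a window and says nothing of binding.

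Under every alternative run that tested them, 7 of the 16 code 1 calls held and the other 9 did not. Those kept were CDKN1A, BAK1, PMAIP1, BIK, TNFSF10, CFLAR and CASP6. BIK was not tested in the run without the dimmest 50% of probes, which left out its probe. The calls of MDM2 and BID were lost only with the mean of a gene's probes (0.30, limma adjusted p = 0.147, and -0.39, limma adjusted p = 0.140). The calls of GADD45B, TP53INP1, DDB2, MCL1, BAD, CASP9 and DIABLO were lost when control replicate 1 was left out, when miR-148b replicate 3 was left out, and against code 3 alone, which left 9 members called in each case. Without miR-148b replicate 2 or miR-148b replicate 4, 10 members were called, and without control replicates 2, 3 and 4 in turn 11, 14 and 11. Without miR-148b replicate 1 the call of CASP9 was lost. Marker genes moved in the same contrast, in which 36.3% of all genes were called. Of 8 mesenchymal markers 4 were called, with CD44 at -1.25, SPARC at -2.13, VIM at 0.45 and MSN at 0.68. Of the 7 luminal markers 2 were above and 5 below 0 (median -0.10), with KRT19 called at 0.35 and GATA3 at -1.40. Their summed intensity, in which the bright keratin probes count most, was 176924 to 208345 on the code 1 arrays and 151077 to 173853 on the others. Of 5 leukocyte markers only CD14 was called, at -0.95. The part of cell identity in the member differences was not tested. In bulk RNA fewer cells with a message and less message per cell cannot be told apart.

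With miR-148b, no member was called against control. In limma's test with terms for code 1 and plus mark, 0% of the 15866 genes passed an adjusted p of 0.05 (smallest adjusted p of 0.158), and the members' smallest was 0.184. At an unadjusted p of 0.05, 5 of 33 members passed (15.2%), against 14.6% of all genes. The members' share was close to that of all genes. At the 1.5-fold change and 16% false discovery rate that the series' design text names, 0.378% of genes (60) and 0 members passed. The members' median log2 difference was 0.03, against -0.02 over all genes.

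At the brightest probes, the member with the smallest p was MDM2. It read 712.8, 920.9, 535.9 and 401.9 on miR-148b replicates 1 to 4, against 500.3, 312.8, 422.8 and 286.9 on control replicates 1 to 4. In each matched pair the miR-148b array was higher, by 0.51, 0.34 and 0.49 on the log2 scale, while the groups overlapped as a whole. The fitted log2 difference was 0.42 (SE 0.09; limma adjusted p = 0.184). Its other 3 probes were at 0.38, 0.44 and 0.11. The second probe of BCL2 was at 0.55, opposite in sign to the brightest BCL2 probe at -0.21. Over all probes its limma adjusted p was 0.193, against 0.216 for the brightest probe of MDM2.

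GADD45A, a stress gene that p53 induces and whose protein binds the replication clamp, separated the groups. Its readings were 9248, 12454, 9806 and 8235 with miR-148b, against 6265, 6771, 8231 and 6589.7 in control. The 4 miR-148b arrays lay above the 4 control arrays, though miR-148b replicate 4 and control replicate 3 were nearly equal. The fitted difference was 0.39 (SE 0.11; limma adjusted p = 0.232).

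TP53I3, a p53-induced oxidoreductase gene, was the other member whose groups stood apart. It read 1146, 1309 and 1443 on miR-148b replicates 1 to 3 and 1445 on replicate 4, against 2038, 1728, 1506 and 2013 in control. All miR-148b arrays were below all control arrays, and the fitted difference was -0.40 (SE 0.15; limma adjusted p = 0.306). Groups without overlap were found in 2 of the 33 members, against 4% of all genes with a value on every array.

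BIK and TNFSF10, both already lower on the code 1 arrays, also read lower with miR-148b within each matched pair. The BIK pairs differed by -0.28, -0.64 and -0.55 on the log2 scale, with a fitted difference of -0.61 (SE 0.17; limma adjusted p = 0.229). For TNFSF10 the pairs were at -0.80, -0.23 and -0.40 and the fitted difference at -0.44 (SE 0.13; limma adjusted p = 0.246). Without terms for code 1 and plus mark these differences were -1.01 and -1.30, and code 1 stands on 2 miR-148b arrays but on 1 control array. Neither gene was called under any alternative run that tested it.

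The same sign in the 3 matched pairs was found in 10 members, 6 above and 4 below control, and in 38.2% of all genes. Above were MDM2, GADD45A, GADD45B, DDB2, MCL1 and XIAP, and below were TP53I3, BCL2L2, BIK and TNFSF10. The other members, in every role group, had pairs of both signs. CDKN1A had a fitted difference of -0.23 (SE 0.14) and CFLAR of 0.00 (SE 0.08). By group, the medians were 0.09 for the p53 targets, -0.08 for the survival members, 0.03 for the effectors and BH3 members, 0.00 for the death receptor genes and -0.05 for the caspase group. The summed intensity of 5 leukocyte markers was 826 to 1207 with miR-148b and 1291 to 1563 in control, with 0 of the 5 called and PTPRC at 17.4 or less throughout. CD68, the brightest of the 5, counts most in this sum, at 510 to 813 with miR-148b and 916 to 1008 in control. Groups without overlap, as for CD68, were found in 4% of all genes. PTPRC had a fitted difference of 0.19, the 1 above 0, and the other 4 markers were below 0.

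**Figure D3:**
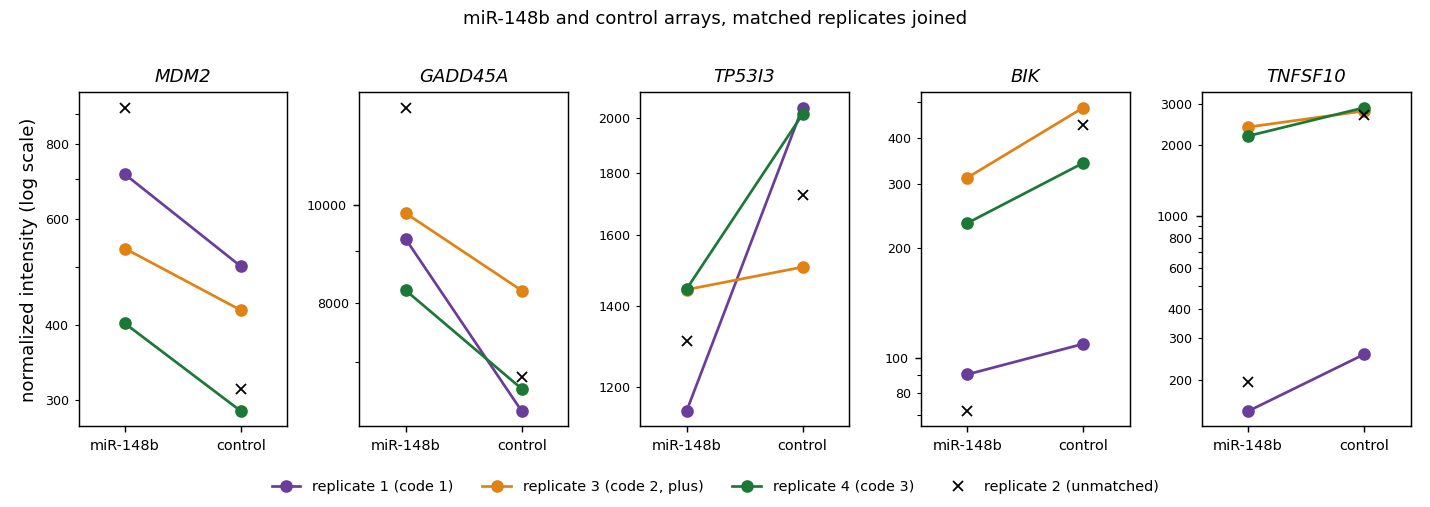
Normalized intensity (y axis, log scale) of the 5 members past an unadjusted p of 0.05 on miR-148b and control arrays, with lines joining replicates that match in code and plus mark and crosses for replicate 2. All joined lines slope the same way in each panel, and 0 of the 5 members passed an adjusted p of 0.05.

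Only 1 control array carries code 1, so the test that follows cannot show that a difference is absent. Whether the miR-148b difference itself differed between code 1 and the other codes was tested with an interaction term. It was called in 0% of 15664 genes by limma, and 552 genes (3.52%) passed an unadjusted p of 0.05. Among the members APAF1 alone passed an unadjusted p of 0.05, at -1.02 on the log2 scale (limma adjusted p = 0.996). APAF1 read 169.5 and 305.3 on the code 1 miR-148b arrays and 217.0 on the code 1 control array, and its matched pairs were at -0.36, 0.04 and 0.66.

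Between the plus arrays and the others, the largest differences among the members' brightest probes were those of BCL2, which was lower, and APAF1, which was higher. Of 33 members 6 were called (18.2%), against 13.6% of all genes. Higher on the plus arrays were 4 (5.88% of all genes were), APAF1, SESN1, BAX and MDM2. Lower were 2 (7.68% of all genes were), BCL2 and XIAP. The plus arrays lay wholly above the others in 5 members and wholly below in 2, against groups apart in 16.1% of all genes. Of the called members MDM2 alone overlapped.

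BCL2, the first known survival gene of its family, read 641.6 and 752.7 on the plus miR-148b arrays and 799.0 on the plus control array, against 1419 and 3027 on the other miR-148b arrays and 2722, 2403 and 3016 on the other control arrays. The plus arrays were all lower, 3.26-fold by the fit (log2 difference -1.71, SE 0.22; limma adjusted p = 0.0104). The second probe of BCL2 was at -0.10, so the fall rests on 1 of its 2 probes. In the same array order XIAP, the inhibitor of caspases, read 607.5, 678.5 and 633.6 on the plus arrays, against 1296, 1101, 998.3, 1103 and 782.7 on the others. It was lower without overlap (-0.76, SE 0.16; limma adjusted p = 0.0322).

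APAF1, the scaffold of the apoptosome, was higher. In that order it read 305.3, 486.8 and 473.8 on the plus arrays, against 169.5, 225.3, 217.0, 136.6 and 142.8 on the others, without overlap. The fitted difference was 1.21 (SE 0.27), or 2.31-fold higher, with a limma adjusted p of 0.0355. SESN1, a p53-induced sestrin that restrains growth signalling, read 313.3, 331.9 and 355.0 on the plus arrays, against 265.4, 218.8, 178.6, 189.2 and 182.2 on the others. The groups stood apart (0.65, SE 0.15; limma adjusted p = 0.0390), and its second probe was at 0.81.

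BAX, the effector that moves to mitochondria, read 19170 on plus miR-148b replicate 2, 23632 on miR-148b replicate 3 and 21545 on control replicate 3, against 13270, 15268, 15829, 18433 and 15455 on the others. It was higher by 0.47 (SE 0.11; limma adjusted p = 0.0454), and its other probes were at 0.12 and 0.84. MDM2 was higher by 0.44 (SE 0.09; limma adjusted p = 0.0290), with overlap. CASP8, the initiator caspase gene of death receptors, was not called at its brightest probe (-0.34). Its other probes were at 1.92 and 0.89, with a limma adjusted p of 0.0335 and 0.0338 over all probes. The probes of CASP8 therefore gave opposite signs. ZMAT3 and TNFRSF10B had plus arrays wholly above the others without being called, at 0.48 and 0.46.

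**Figure D4:**
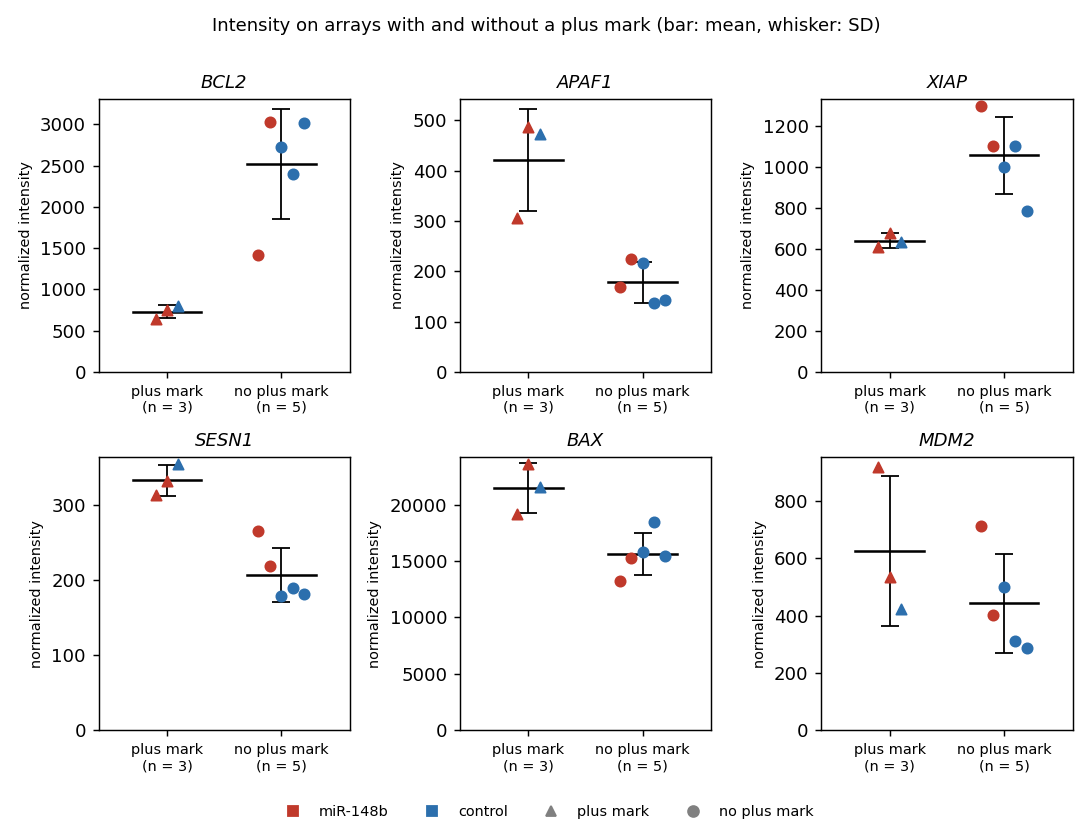
Normalized intensity (y axis, from 0) of the 6 members called between the 3 plus arrays and the 5 arrays without plus mark, with points for arrays, bars for means and whiskers for SD. BCL2 and XIAP are lower on every plus array, APAF1, SESN1 and BAX are higher on every one, and MDM2 overlaps.

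None of the 6 plus-mark calls held under every alternative run. With each array centred on its median, which moved the median of all genes by -0.075 on the log2 scale, 0 members were higher and 2 lower. The same centring left 458 genes higher and 1380 lower, against 933 and 1219 before it, so the share of higher calls was 24.9% centred and 43.4% uncentred. Leaving out control replicate 3 or miR-148b replicate 4 left 0 members called, control replicate 2 or miR-148b replicate 3 left 1, and control replicate 1, control replicate 4 or miR-148b replicate 2 left 2. The fitted directions of the 6 stayed the same in all of these.

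**Figure D5:**
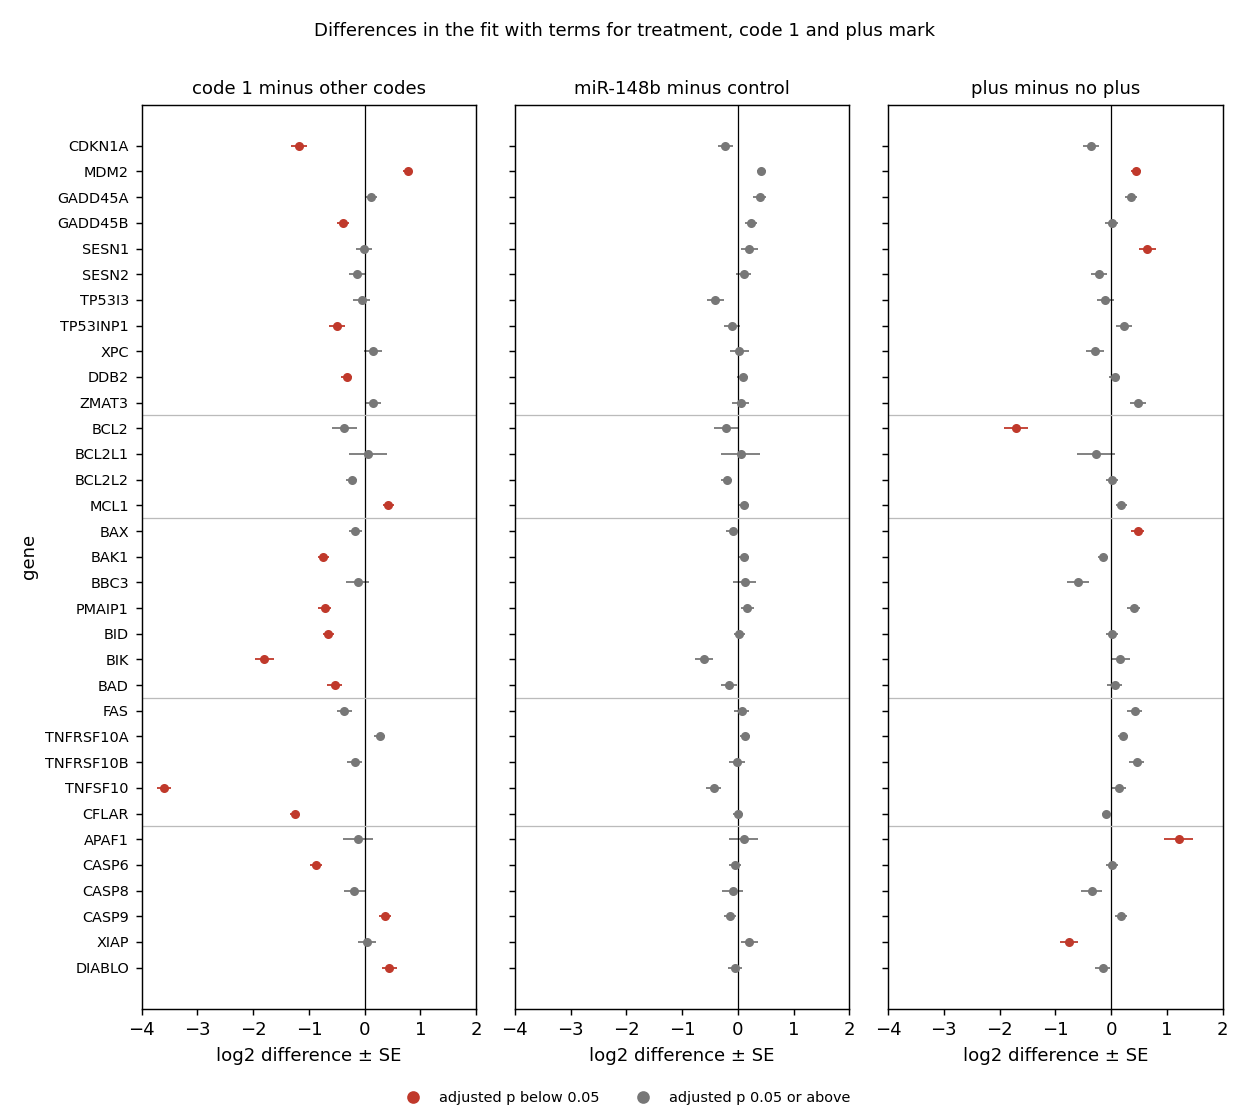
Fitted log2 difference with SE for the 33 members by role group in the 3 comparisons, code 1 minus other codes, miR-148b minus control and plus mark minus no plus mark. Lines part the role groups, and red points passed an adjusted p of 0.05 over all genes, which 16, 0 and 6 members did.

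Other genes of the same pathways, 59 listed and 52 tested, were called in the same comparisons at 3 higher and 13 lower for code 1, 3 higher and 2 lower for the plus mark, and 0 for miR-148b. These are 30.8% of the tested genes for code 1, against 36.3% of all genes, and 9.62% for the plus mark, against 13.6%. For code 1 the largest difference was that of TNFRSF25, the death receptor DR3 gene. TNFRSF25 read 144.2, 112.0 and 136.8 on the code 1 arrays, against 2841, 3254, 2751, 3420.4 and 3709.5 on the others (log2 difference -4.60; limma adjusted p = 1.13e-05). PHLDA3, a p53 target that restrains AKT, read 194.5, 199.2 and 197.7 on the code 1 arrays and 881 to 1191 on the others (-2.29). BMF, a further BH3 gene, read 127 to 208 on the code 1 arrays and 384 to 709 on the others (-1.51). GDF15, the gene of a secreted stress cytokine that p53 can induce, ran the other way, with 18256 to 24546 on the code 1 arrays and 5065 to 7771 on the others (1.86). All 4 had groups of arrays without overlap.

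Among the further genes called for the plus mark were PLK2, a p53-induced kinase gene (0.57), BIRC5, the survivin gene (0.53), and TNFRSF1A, the TNF receptor gene (-0.50). FASLG, the FAS ligand gene, was at -1.16, but its cells were empty on miR-148b replicate 2 and control replicate 3, so the plus mark rests there on 1 array, and its readings were at most 20.3.

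Where a member had several probes, the differences at the others shared its sign most often for code 1, least often for the plus mark. Signs were counted whatever the size of the difference. In 15 members with 23 other probes, 20 had the sign of the brightest probe for code 1, 16 for miR-148b and 14 for the plus mark. Over the 8 arrays the readings of a member differed 1.35-fold (CASP9) to 19.6-fold (TNFSF10) between its lowest and highest array. After TNFSF10 came BIK (6.77-fold), BCL2 (4.72-fold), APAF1 (3.56-fold), CDKN1A (3.39-fold) and MDM2 (3.21-fold).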

How the data were processed

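Expression of MDA-MB-231 cells was measured on 8 Agilent arrays of 1 dye. The scans were processed in Agilent Feature Extraction 10.5.1.1 according to the submitters' processing notes. The authors deposited 1 table of normalized intensity per probe (33446 probes); how it was normalized is not given in the sources used here, and all arrays share the same highest value. A total of 2864 probes had an empty cell on some array, between 81 and 1038 per array, and these stayed empty. By the platform annotation 24790 probes named 1 gene, 27 several and 8629 none.

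The deposited intensities were not normalized again and were put on the log2 scale (pseudocount 0). In R 4.3.3, lmFit and eBayes of limma 3.58.1 gave two-sided tests, with Benjamini-Hochberg adjustment over all genes tested, in a model with terms for treatment, code 1 and plus mark, which leaves 4 residual degrees of freedom. The fit was tested on simulated data. The members and lists were chosen with earlier results of these data known. Values per array are printed for the 16 called members with the largest difference and the 4 members with the smallest p for miR-148b; other members are given as values or ranges, and up to 4 further pathway genes per comparison are named among those called. TP53I3 per array, marker genes and probes beyond the brightest were added after their values were seen. Alternatives covered the model terms, dim probes, centring, the probe of a gene, a pseudocount of 50, a variance trend, the series' thresholds, leaving out each array, and the replicate number as a block. Promoter motifs were searched in RefSeq windows with Python 3.11.15.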

Additional observations from a re-analysis of the deposited data

Results flagged for a closer look

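In 8 of 132 groups of 4 or 5 arrays formed from the members' readings, 1 array lay far from the rest of its group. A chance rate of about 1 in 20 holds for independent groups. These groups share the same 8 arrays, so the count cannot be read against that rate. Control replicate 1, the only control array of code 1, was the distant one in 4 of the 8. Its TNFSF10 and CFLAR readings are part of the code 1 differences given above. Among the control arrays it read 256.5 for TNFSF10, against 2672 to 2883 on the other 3, and 1115 for CFLAR, against 2528 to 2800. Among the arrays without plus mark it read 5936 for GADD45B, against 8305 to 9493, and 106.9 for FAS, against 150.1 to 168.

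Control replicate 3, the only control array with a plus mark, was the distant one in the other 4. Among the control arrays it read 355.0 for SESN1, against 178.6 to 189.2 on the other 3. Among the arrays of codes 2 and 3 it read 3076 for BAK1, against 3671 to 3809.9, 11436 for BID, against 10188 to 10475, and 1823 for CASP9, against 1366 to 1424.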

How the results depend on the processing

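No sign changed under an alternative among the results recomputed: the 16 code 1 calls, the 6 plus-mark calls and the 5 members past an unadjusted p of 0.05 for miR-148b. The count of members called for code 1 was 16. It was 9 for code 1 minus code 3 alone, 9 at the series' thresholds of 1.5-fold and 16%, and 9 to 16 with an array left out. The count for the plus mark was 6. It was 2 without the other terms, 1 with 3 code levels and plus mark, 2 with median-centred arrays and 0 to 9 with an array left out. Other alternatives kept both counts within 1.5 times. For miR-148b minus control, 0 members were called under every alternative, including the replicate block (0), the replicate block over the 3 matched pairs (0), and fits without the code 1 arrays or without the plus arrays. Over the called members and the alternatives, a call was lost 68 times for code 1 and 52 times for the plus mark. Over all genes, the 5760 calls for code 1 dropped to 3349 when control replicate 1 was left out and to 3520 when miR-148b replicate 4 was. The 2152 for the plus mark were 682 without the other terms, 238 with 3 code levels and 109 to 3725 with an array left out. Over all genes, 37 were called for miR-148b without the dimmest 50% of probes, and 60 at the series' thresholds. The replicate numbers paired the arrays in part: with group means removed, same-numbered arrays correlated at 0.61, -0.50, 0.59 and 0.66 for replicates 1 to 4, across 30582 probes, and the arrays of replicate 2 differ in code and mark. The cause of these shifts was not tested. The fit had 4 residual degrees of freedom, and the smallest member difference it called was -0.32 (DDB2, code 1).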

Other observations

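Some genes of the wider pathways were called on the code 1 arrays beside those already named. Of the 52 tested, 30.8% were called, against 36.3% of all genes. Not all of those called are listed here. The p53 partner gene MDM4 was at -0.50 (limma adjusted p = 0.0130) and the decoy receptor gene TNFRSF10C at -0.56 (0.00847), while TRIAP1, a p53-induced survival gene, was at 0.52 (0.0113). The BIM gene BCL2L11 was at -0.71 (0.00770), the caspase gene CASP2 at -0.60 (0.0106) and AIFM1, the gene of apoptosis-inducing factor, at -0.60 (0.00281). AIFM1 was also called on the plus arrays, at 0.42 (0.0311). These genes were named after their values were seen.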
